A study of Mus musculus with 9 samples.

Results

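The genes described are the mouse cytosolic ribosomal proteins, taken as every row of the deposited count table whose symbol is Rpl or Rps with a number (with or without a closing a, l or x), Rplp0, Rplp1, Rplp2 or Rpsa. The rule found 82 genes among 24444 gene symbols, 50 named for the large and 32 for the small ribosomal subunit. All 82 were found in the mm10 annotation GENCODE vM21, where 80 are protein coding and Rps4l and Rpl32l are pseudogenes. Some ribosomal protein genes have symbols that the rule misses, among them Rps3a1, Fau and Rack1, and these are given separately.

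Bulk RNA-seq was made from 9 mouse samples in 3 groups of 3, which the design text calls biological replicates. The MycT58A tumours grew in the cerebellum of CD1-nude hosts from implanted cells that carried Blbp-Cre with Ctnnb1Ex3flx/flx, Trp53flx/flx and Pik3caE545K +/flx, plus MycT58A, a MYC form whose changed phosphorylation site makes the protein more stable. EV tumours grew from the same kind of cells with EV, read here as the empty vector, so every allele except MycT58A is common to both. Control samples were normal cerebellum of CD1-nude mice, with neither the alleles nor implanted cells, so both tumour groups differ from control in cell type as well as in genotype. Blbp-Cre is active in neural progenitors and radial glia, and nude mice lack most T cells. The sources used here do not say whether the implanted cells of 1 group came from 1 preparation. GFP-positive tumour pieces were microdissected, and such a piece can also hold host cells. In bulk samples, fewer cells of a type and less RNA per cell cannot be told apart.

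The libraries held 16631523 to 30410089 counts. A protocol label calls the controls cortex, but the cerebellar granule neuron gene Gabra6 stood at 522 to 888 CPM (counts-per-million on the TMM-scaled library size, where TMM is a scaling that evens out library composition) in the control libraries, and the cortical gene Emx1 had no count in any library. Myc had 918, 859 and 727 CPM in the MycT58A tumours 1 to 3, 360, 19.9 and 762 CPM in EV tumours 1 to 3, and 0.94, 1.60 and 32.0 CPM in controls 1 to 3. EV 3 therefore lay inside the MycT58A range for Myc, and EV 2 far below the other tumours; the counts do not separate the endogenous gene from a construct.

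A ribosome joins these proteins to ribosomal RNA, the small subunit decoding the mRNA and the large subunit forming peptide bonds. Mammalian ribosomal protein mRNAs mostly begin with a C followed by pyrimidines (the 5′ terminal oligopyrimidine, or TOP, motif), through which mTOR and LARP1 control their translation. MYC is known as a broad activator of ribosome production, and ribosomal proteins are among the most abundant transcripts of growing cells.

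The start-site sequences of 8 members are shown, because the comparisons below turn on them: Rpl13, Rpl13a, Rpl27a and Rps13 passed the test between the tumour groups, and Rps24, Rpl15, Rps4x and Rpl10 had the lowest differences there among abundant members. Each runs from 40 bases before to 20 bases after the start annotated by RefSeq on GRCm38.p6, and the capitals mark its longest unbroken run of C and T on the gene's strand.
Rpl13: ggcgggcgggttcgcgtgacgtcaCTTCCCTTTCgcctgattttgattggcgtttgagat
Rpl13a: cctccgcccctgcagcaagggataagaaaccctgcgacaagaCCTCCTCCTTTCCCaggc
Rpl27a: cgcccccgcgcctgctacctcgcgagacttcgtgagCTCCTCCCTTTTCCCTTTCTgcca
Rps13: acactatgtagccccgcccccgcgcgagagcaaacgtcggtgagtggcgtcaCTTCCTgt
Rps24: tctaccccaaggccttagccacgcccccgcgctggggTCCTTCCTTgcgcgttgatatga
Rpl15: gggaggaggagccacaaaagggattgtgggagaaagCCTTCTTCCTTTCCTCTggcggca
Rps4x: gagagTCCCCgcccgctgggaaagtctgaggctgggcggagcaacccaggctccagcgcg
Rpl10: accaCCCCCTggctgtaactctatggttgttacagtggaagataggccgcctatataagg

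These windows lie at chr8:123102310-123102369 on the plus strand (Rpl13), chr7:45128726-45128785 on the minus strand (Rpl13a), chr7:109519155-109519214 on the plus strand (Rpl27a) and chr7:116334171-116334230 on the minus strand (Rps13). The others lie at chr14:24490638-24490697 on the plus strand (Rps24), chr14:18270967-18271026 on the minus strand (Rpl15), chrX:102189372-102189431 on the minus strand (Rps4x) and chrX:74270776-74270835 on the plus strand (Rpl10). Of the genes shown, only Rpl13 has a RefSeq start that matches the outermost start annotated by GENCODE. The RefSeq starts of the others lie inside the GENCODE gene, downstream of that start, farthest in Rps24 and then Rpl15. A run of at least 8 C or T was present in Rpl13, Rpl13a and Rpl27a, and equally in Rps24 and Rpl15, which did not pass that test. Rps13, Rps4x and Rpl10 held only shorter runs of 6, 5 and 6 bases. The genes shown are not all that passed. Among them, the pyrimidine run did not separate those that passed the test from those with the lowest differences. The run was sought anywhere in the window, so it need not be a TOP motif. In Rpl13, Rps4x and Rpl10 it lay wholly upstream of the annotated start.

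RefSeq gave a promoter sequence for 61 of the 82 members. A run of at least 8 C or T lay in the 60-base window of 52.5% of them, against 24.0% of all 27025 promoters in the table. A C at the annotated start followed by 4 more pyrimidines was found in 21.3% of members and 2.49% of all promoters. In the 300 bases from 250 before to 50 after the start, on both strands, CCGGAAG (an ETS-type motif) was found in 39.3% of members and 9.12% of all promoters, and ATGGCG (as in YY1 sites) in 27.9% and 9.24%. The E-box CACGTG, which MYC and other factors can bind, was found in 8.2% of members and 7.24% of all promoters. TATAAA was found in 9.84% of members and 14.2% of all promoters. These shares describe letters in a window and were not tested.

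Together the 82 genes took 11.7, 15.1 and 13.0% of all counts in the MycT58A libraries, 11.4, 5.31 and 9.72% in the EV libraries, and 2.04, 1.81 and 2.23% in the control libraries. Group means were 13.3 ± 1.70% for MycT58A, 8.81 ± 3.15% for EV and 2.02 ± 0.212% for control (SD, n = 3 each). Both tumour groups lay wholly above control, and the 3 MycT58A libraries lay above the 3 EV libraries with EV 1 and MycT58A 1 close to each other. Adding ribosomal protein genes with other symbols and 7 rows of -ps pseudogenes, for 97 rows in all, gave 14.2, 9.46 and 2.18% in MycT58A, EV and control. The pseudogene rows alone equalled 0.00619 to 0.0222% of the members' counts.

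**Figure D1:**
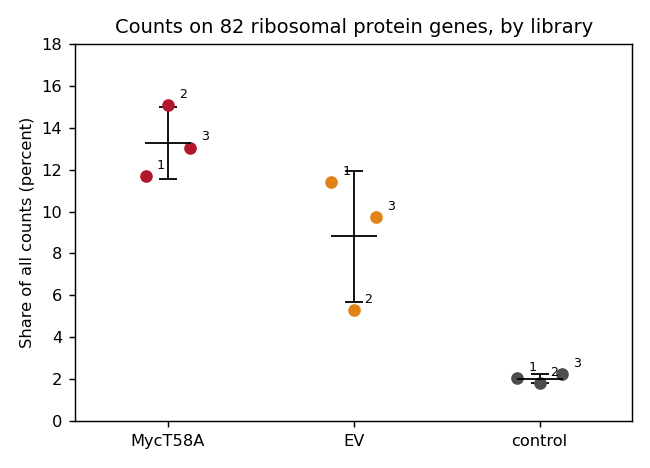
Share of all counts (percent, y axis) on the 82 ribosomal protein genes in each MycT58A, EV and control library (points, numbered by replicate), with the group mean and SD (bars, n = 3 each). Control libraries sit near 2%, the EV libraries spread between 5.31 and 11.4%, and the MycT58A libraries lie between 11.7 and 15.1%.

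The family split sharply by level. In 72 members the mean was at least 50 CPM in every group, and these are called abundant; 78 members passed the low-count filter and were tested. Rpl10l, Rpl26, Rpl32l and Rpl3l were not tested. Rpl26 and Rpl10l had no count in any library, where 3 counts would correspond to 0.103 to 0.17 CPM. Rpl30 averaged 0.73, 0.46 and 0.13 CPM and Rpl34 0.91, 0.65 and 0.12 CPM in MycT58A, EV and control libraries, and Rps27 stayed between 0.38 and 2.26 CPM in all 9. Rpl26, Rpl30, Rpl34 and Rps27 encode core ribosomal proteins, but how reads that match several copies were counted is not stated, and these rows are uncertain.

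Levels between genes were compared per kilobase of each gene's APPRIS principal transcript, which the annotation gives for 68 of the 72 abundant members, a scale chosen after seeing the data. On this scale (CPM per kb) the median member stood at 2300 in MycT58A, 1320 in EV and 351 in control. Rplp1, a protein of the acidic stalk, was highest in MycT58A at 5078 ± 893 CPM per kb and stood at 2890 ± 1148 in EV and 716 ± 122 in control (SD, n = 3 each). Rps29 led in control at 722 ± 120 CPM per kb, against 2031 ± 286 in MycT58A and 1702 ± 669 in EV. The top control levels, those of Rps29, Rpl9, Rplp1 and Rps14, lay within 1 SD of each other. Rps20 was lowest of the abundant members in every group, at 413 CPM per kb in MycT58A, 212 in EV and 41.1 in control, with an annotated principal transcript of 3706 bases. The order depends on the length used: per kilobase of merged exons, Rplp1 was highest and Rps15a lowest of 72 in all 3 groups. The spread between members (SD of log2 CPM per kb) was 0.658, 0.689 and 0.715 in MycT58A, EV and control.

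In MycT58A tumours against control, ribosomal protein genes of both subunits were higher almost without exception. Of 78 members tested, 75 rose and 1 fell (edgeR quasi-likelihood test, adjusted p under 0.05 over 15171 genes); over all genes 31.2% rose and 31% fell. The median log2 fold change was 2.76 for the members and -0.02 for all genes. All 72 abundant members rose, by 1.49 to 4.16 on the log2 scale, and in all 72 the groups were apart. Of the 78, 76 lay wholly above control and 1 wholly below, as in 41% and 41.5% of all genes. Over 43 and 29 abundant members, the large- and small-subunit medians were 2.75 and 2.78.

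In EV tumours against the same 3 control libraries, 76 of the 78 members rose and 1 fell, where 30.7% of all genes rose and 26.3% fell by the same test. The median log2 fold change was 2.01 for the members tested and 0.14 for all genes tested. All 72 abundant members rose, by 0.84 to 3.29 on the log2 scale. The EV libraries lay wholly above control in 74 members and wholly below in 1, as in 30.3% and 32.2% of all genes. Rpl24 was the abundant member with overlapping groups: EV libraries had 1301, 267 and 931 CPM and control libraries 285, 228 and 307 CPM. Large- and small-subunit genes had medians of 2.01 and 2.0 over 43 and 29 abundant members.

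The tumours also differed from control in cell make-up. Of 10 granule neuron markers, 9 fell in each tumour group, where 31% of all genes fell in MycT58A and 26.3% in EV. Their summed level was 115 to 164 CPM in MycT58A, 23.7 to 146 CPM in EV and 5149 to 6868 CPM in control libraries. All 8 proliferation markers, Mki67 among them, rose in both tumour groups, as did 31.2% of all genes in MycT58A and 30.7% in EV. They summed to 2338 to 2723 CPM in MycT58A, 494 to 1496 CPM in EV and 59.8 to 95.1 CPM in control. As with Myc, control 3 stood above the other controls for some of them. Mki67 had 0.74, 0.35 and 9.89 CPM and Top2a 0.37, 0.53 and 12.9 CPM in controls 1 to 3, while Pcna had 44.2, 45.9 and 46.3 CPM. The cause was not tested. Without control 3, 75 members rose in MycT58A and 73 in EV against control, where 25.7% and 24% of all genes rose. The part of the shifts in cell make-up in the ribosomal protein result was not tested.

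**Figure D2:**
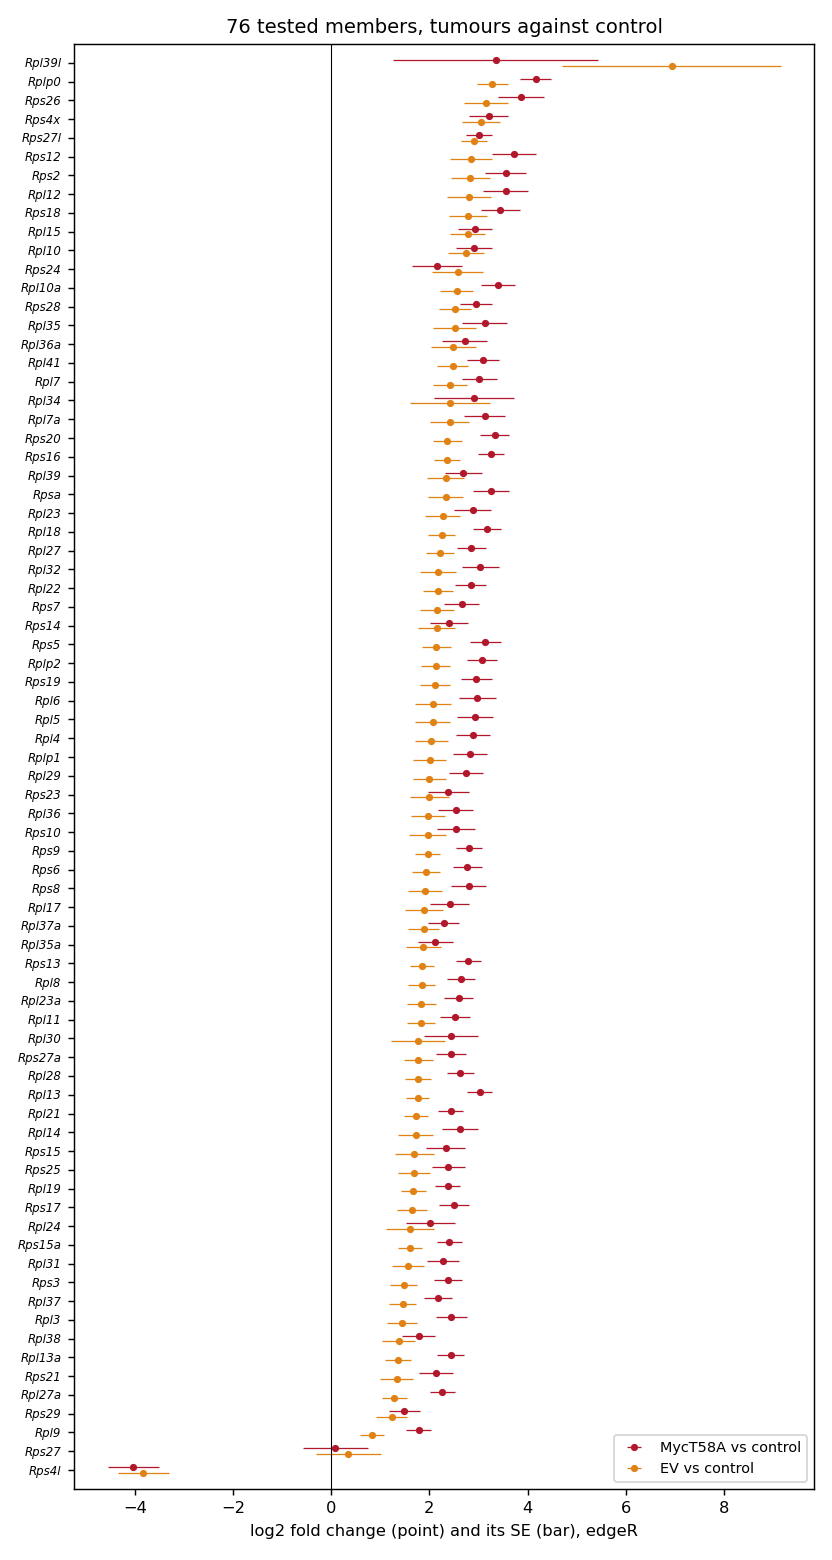
Log2 fold change (points) and standard error (bars) of 76 of the 78 tested members, MycT58A against control (red) and EV against control (orange), sorted by the EV value. Nearly all points lie right of 0, Rps4l lies at -3.83 for EV and -4.03 for MycT58A, and the wide bars belong to Rpl39l and other members with few counts.

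The stalk of the large subunit, which recruits elongation factors, is built by Rplp0, Rplp1 and Rplp2 on a base that Rpl12 adjoins, and all 4 genes rose in both tumour groups. Rplp0 had 4934, 6806 and 5630 CPM in MycT58A libraries, 3504, 2072 and 3877 CPM in EV libraries and 325, 283 and 362 CPM in control libraries. No tumour library came near the control level. Its log2 fold change was the largest of the abundant members, 4.16 ± 0.32 in MycT58A against control (edgeR adjusted p = 3.4e-05) and 3.29 ± 0.31 in EV against control (adjusted p = 8e-05; ± is the SE). Rpl12 was 11.7-fold higher in MycT58A and 7.03-fold higher in EV, Rplp2 8.37-fold and 4.38-fold, and Rplp1 7.09-fold and 4.03-fold.

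Rps26, which lies at the mRNA exit channel of the small subunit, had 1346, 1850 and 1413 CPM in MycT58A libraries, 1593, 453 and 763 CPM in EV libraries and 102, 89.8 and 124 CPM in control libraries. The EV libraries spread widely yet stayed above control. It was 14.6-fold higher in MycT58A than in control and 8.91-fold higher in EV than in control. Rps12, in the small-subunit head, was 13.2-fold and 7.19-fold higher, and Rpsa, the laminin-receptor-like protein of the small subunit, 9.53-fold and 5.04-fold higher.

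At the other end stood Rpl9 and Rps29. Rpl9, a large-subunit protein, had 1469, 1951 and 1607 CPM in MycT58A libraries, 1076, 643 and 896 CPM in EV libraries and 475, 430 and 559 CPM in control libraries. Its 3 groups were apart, in ascending order control, EV and MycT58A. The fold was 3.43 in MycT58A and 1.79 in EV over control (edgeR adjusted p = 0.000432 and 0.0181). Rps29, a small zinc-binding protein of the head, was 2.81-fold higher in MycT58A and 2.36-fold higher in EV. Rpl38, known from mouse skeletal patterning, was 3.45-fold and 2.6-fold higher.

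Members with roles outside peptide synthesis followed the family. Rpl5 and Rpl11 form a particle with 5S ribosomal RNA that can bind and inhibit MDM2, the ubiquitin ligase of p53; Rpl5 was 7.64-fold higher in MycT58A and 4.19-fold higher in EV than in control, and Rpl11 5.75-fold and 3.56-fold. The implanted cells carry floxed Trp53, and Mdm2 did not pass the test in either tumour group (log2 fold change 0.09 in MycT58A and 0.11 in EV against control). Rps6, the substrate of S6 kinase, was 6.85-fold and 3.82-fold higher, with 2635, 3242 and 2787 CPM in MycT58A, 2218, 1099 and 1516 CPM in EV and 430, 363 and 472 CPM in control libraries. Rps27a, which is made as a fusion with ubiquitin, was 5.47-fold and 3.43-fold higher. Of the 18 members on a list of human Diamond-Blackfan anaemia genes, 17 were tested and 16, or 94.1%, rose in each tumour group. This was near the share of all members tested, 96.2% in MycT58A and 97.4% in EV. Over all genes 31.2% and 30.7% rose. Rps19, the most often mutated of the listed genes in people, was 7.75-fold higher in MycT58A and 4.34-fold higher in EV.

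Among the paralogs within the rule the directions differed. Rps4l, annotated as a transcribed processed pseudogene, was the member that fell: it had 0.86, 0.64 and 0.21 CPM in MycT58A libraries, 0.65, 0.76 and 0.57 CPM in EV libraries and 8.70, 8.82 and 10.9 CPM in control libraries. Tumours lay wholly below control, by a log2 fold change of -4.03 ± 0.52 in MycT58A and -3.83 ± 0.52 in EV (edgeR adjusted p = 0.000286 and 0.000436). Its X-linked relative Rps4x went the other way and is described below. Rps27l, a known p53 target in human and mouse cells, had 126, 102 and 112 CPM in MycT58A, 117, 70.9 and 128 CPM in EV and 13.6, 12.2 and 16.3 CPM in control libraries. It was 8.06-fold higher in MycT58A and 7.5-fold higher in EV, and the 2 tumour groups overlapped.

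Rpl39l, a paralog of Rpl39 best known from the testis, stood out in 1 tumour. It had 0.14, 1.06 and 0.72 CPM in MycT58A libraries, 0.03, 0.30 and 23.1 CPM in EV libraries and 0.04, 0.09 and 0.05 CPM in control libraries. Only EV 3 stood above 2 CPM, with 408 counts. The EV against control call (log2 fold change 6.94, edgeR adjusted p = 0.0262) rested on that library: without EV 3 the value was 1.39 with an adjusted p of 0.356. The MycT58A against EV value of -3.59 (adjusted p = 0.205) became 1.998 without EV 3 (adjusted p = 0.185). Against control, MycT58A had a value of 3.35 and did not pass the test (adjusted p = 0.192).

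Between the tumour groups the family leaned towards MycT58A, but few members passed the test. The median log2 fold change of MycT58A over EV was 0.71 for the 78 members and -0.04 for all genes tested, and 74 of the 78 values were above 0. In all, 6 of the 78 members, or 7.69%, rose and 0 fell at an edgeR adjusted p under 0.05; over all genes 3.28% rose and 5.02% fell. At an unadjusted p under 0.05, 40 members were higher and 0 lower, where 13.3% of all genes were higher and 17.9% lower. In 45 members every MycT58A library lay above every EV library, as in 18.2% of all genes, and in 0 members the reverse held, as in 13.6% of all genes. DESeq2 called 24 members higher and 0 lower, and limma-voom 14 and 0, where they called 8.77% and 5.83% of all genes higher.

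Among those that passed were Rpl13, Rpl13a and Rpl27a of the large subunit and Rps13 of the small subunit. Rpl13 had 2661, 3428 and 2943 CPM in MycT58A libraries, 1308, 970 and 1486 CPM in EV libraries and 391, 319 and 400 CPM in control libraries. The 3 groups were well apart. It was 2.4-fold higher in MycT58A than in EV (log2 fold change 1.26 ± 0.23, edgeR adjusted p = 0.0222). Rpl13a, a protein known to leave the ribosome as part of the interferon-activated GAIT complex in human cells, had 2388, 3399 and 2841 CPM in MycT58A libraries and 1812, 1139 and 1148 CPM in EV libraries, a 2.1-fold difference (adjusted p = 0.0432). Again no EV library reached the lowest MycT58A library.

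Rps13 was 1.92-fold higher in MycT58A than in EV (adjusted p = 0.0468) and Rpl27a 1.98-fold (adjusted p = 0.0486), both by edgeR. Just short of the threshold came Rpl9 (adjusted p = 0.051), Rps16 (0.0594) and Rpl18 (0.063), with folds of 1.92, 1.87 and 1.9. These calls were fragile: 0 members were called when any MycT58A or any control library was left out. Calls over all genes fell as well. Without MycT58A 1, 2 or 3, 0.168, 0.174 and 0.116% of all genes were called higher, against 3.28% with all 9 libraries. Without control 1, 2 or 3 the shares were 0.668, 0.523 and 0.663%. With only the 2 tumour groups fitted, 0 members were called, and edgeR called 10 of all genes higher, or 0.0707%. Leaving out EV 1, EV 2 or EV 3 gave 25, 11 and 12 calls, with 6, 6 and 5 of the 6 among them, where 4.56, 8.91 and 10.9% of all genes were called higher.

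**Figure D3:**
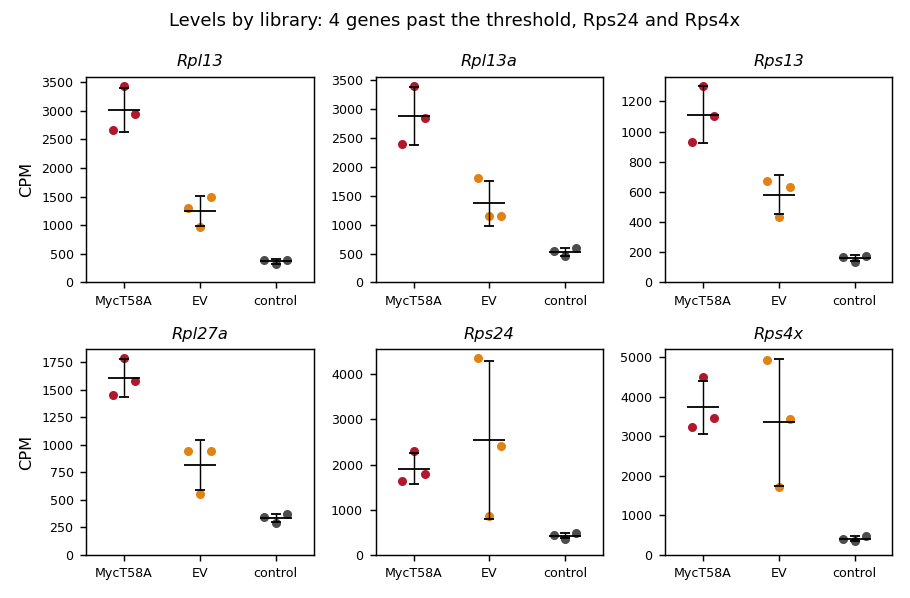
CPM (y axes, each from 0) of Rpl13, Rpl13a, Rps13 and Rpl27a, which passed the test between MycT58A and EV, and of Rps24 and Rps4x, in each MycT58A, EV and control library (points), with group mean and SD (bars, n = 3). In the first 4 genes all MycT58A points lie above all EV points, while for Rps24 and Rps4x an EV point is the highest.

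Functional groups of the ribosome had medians near that of the family in this comparison. The 4 stalk genes had a median log2 fold change of 0.85, the 2 genes of the 5S particle 0.78, and 4 genes near the peptidyl transferase centre 0.82. The 7 tested genes around the nascent peptide exit had 0.66 and the 14 of the small-subunit head 0.77, against 0.73 for all 72 abundant members, and 0 genes on these lists passed the test. Rplp0 (log2 fold change 0.88, edgeR adjusted p = 0.0828) and Rps6 (0.84, adjusted p = 0.0872) came nearest among members named for their roles. Rpl22, which has a known role in T cell development, had a value of 0.66 (adjusted p = 0.164).

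Rps24, a small-subunit protein, was the abundant member with a negative value. It had 1635, 2299 and 1798 CPM in MycT58A libraries, 4349, 866 and 2420 CPM in EV libraries and 448, 361 and 473 CPM in control libraries. The EV libraries fell on both sides of the MycT58A range, and the log2 fold change of -0.41 ± 0.49 did not pass the test (edgeR adjusted p = 0.583) and was 0.22 without EV 1. Rps4x, the X-linked member, had 3246, 4495 and 3467 CPM in MycT58A, 4922, 1706 and 3434 CPM in EV and 405, 342 and 465 CPM in control libraries. Its value of 0.16 ± 0.37 (adjusted p = 0.794) went with a rise of 9.24-fold in MycT58A and 8.3-fold in EV over control. Rpl10, which is also X-linked and joins the large subunit late in its assembly, had 0.17 ± 0.34 (adjusted p = 0.764), and Rpl15 0.15 ± 0.33 (adjusted p = 0.786). Without EV 2 the values of Rps4x, Rpl10 and Rpl15 became -0.16, -0.15 and -0.17, and those of 6 other members also fell below 0.

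The EV tumours differed from each other more than the MycT58A tumours did. The median SD of log2 CPM over 3 libraries was 0.219 in MycT58A, 0.650 in EV and 0.186 in control for the abundant members, and 0.178, 0.564 and 0.160 for all genes tested. EV 2 was the lowest tumour library in all 72 abundant members, and MycT58A 2 the highest in 63, with EV 1 highest in the other 9. These were Rpl15, Rpl24, Rpl35a, Rpl36a, Rpl39, Rps14, Rps23, Rps24 and Rps4x. Set against the range of the 3 MycT58A libraries, EV 1 lay below it in 44 members, inside it in 19 and above it in 9; EV 3 lay below in 67, inside in 4 and above in 1.

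The median abundant member stood above the control mean by 2.55, 2.94 and 2.74 in log2 CPM in the MycT58A libraries, and by 2.45, 1.22 and 2.07 in the EV libraries. EV 2 was also the EV tumour with the lowest Myc, 19.9 CPM. Its sum of 8 proliferation markers was the lowest of the EV tumours, 494 CPM against 1101 in EV 1 and 1496 in EV 3. Its sums of the microglia and macrophage list and of the mural and fibroblast list were the highest of the EV tumours. The same held for its sums of 6 endothelium, 10 granule neuron and 8 myelin markers, 246, 146 and 341 CPM. EV 1 had 46.4, 23.7 and 176 CPM for these and EV 3 86.1, 33.5 and 94.7 CPM. In EV 2 the 10 microglia and macrophage markers summed to 752 CPM, against 453 in EV 1 and 187 in EV 3, with 59.3 to 158 in MycT58A and 210 to 270 in control libraries. Of these, Cd68 and Trem2 were highest of the EV tumours in EV 1 and the rest in EV 2. The 8 mural and fibroblast markers summed to 11886 CPM in EV 2, against 2728 in EV 1 and 8269 in EV 3. The same markers summed to 1442 to 1766 CPM in MycT58A and 279.5 to 359.6 CPM in control libraries. Dcn alone had 7020 CPM in EV 2. In the mural and fibroblast list, Pdgfrb, Col3a1, Dcn and Rgs5 were highest of the EV tumours in EV 2. Pdgfra and Lum were highest in EV 1, and Col1a1 and Col1a2 in EV 3. In the microglia and macrophage list 4 of 10, and in the mural and fibroblast list 2 of 8, were lower in MycT58A than in EV. Over all genes 5.02% were lower. Of the proliferation markers 2 of 8 were higher, where 3.28% of all genes were higher. No list was at 0 in any tumour library. The part of these markers in the ribosomal protein differences was not tested. Without EV 2 the members' median for MycT58A over EV was 0.45, without EV 1 it was 1.0045 and without EV 3 0.79.

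**Figure D4:**
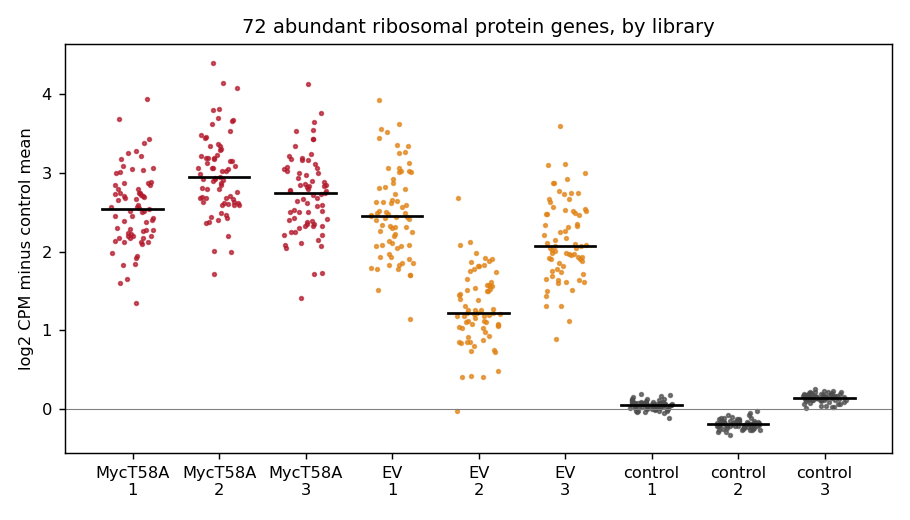
Log2 CPM (with 0.5 added) minus the control mean for the 72 abundant members (points) in each MycT58A, EV and control library, with the library median (line). EV 2 has a median of 1.22, the lowest tumour library, and the MycT58A medians lie between 2.55 and 2.94.

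The difference between the tumour groups varied with the chromosome that carries the gene. Rpl13, on chromosome 8, had a log2 fold change of MycT58A over EV of 1.26, and the 14 abundant members on chromosome 7, Rpl13a, Rps13 and Rpl27a among them, had a median of 0.91. All 14 chromosome 7 members lay between 0.81 and 1.07. The 4 on chromosome X, Rpl10, Rpl36a, Rpl39 and Rps4x, lay between 0.16 and 0.35, and Rpl15 and Rps24 on chromosome 14 had a median of -0.13. The other genes of these chromosomes were ordered in the same way at a lower level: 0.34 on chromosome 8, 0.07 on chromosome 7, -0.21 on chromosome X and -0.36 on chromosome 14. Not every chromosome kept that order: on chromosome 17 the other genes had -0.22, close to X, but the members 0.62. On chromosome 14 members and other genes did not move together by library. Relative to control, the members lay 0.86, 0.20 and 0.65 above the family median in EV 1, EV 2 and EV 3. The other genes there had medians of -0.05, 0.51 and -0.24.

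Across the 18 chromosomes with abundant members, the members' median and the other genes' median had r = 0.84 (Spearman's rho 0.83) for MycT58A against EV, -0.02 for EV against control and 0.38 for MycT58A against control. Points share the same libraries, most rest on 6 or fewer members, and the values are a description. For MycT58A against EV, r was 0.69 without chromosomes 8 and 14, and 0.80, 0.66 and 0.80 without EV 1, EV 2 and EV 3. DNA copy number was not measured, and its part in the pattern was not tested.

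**Figure D5:**
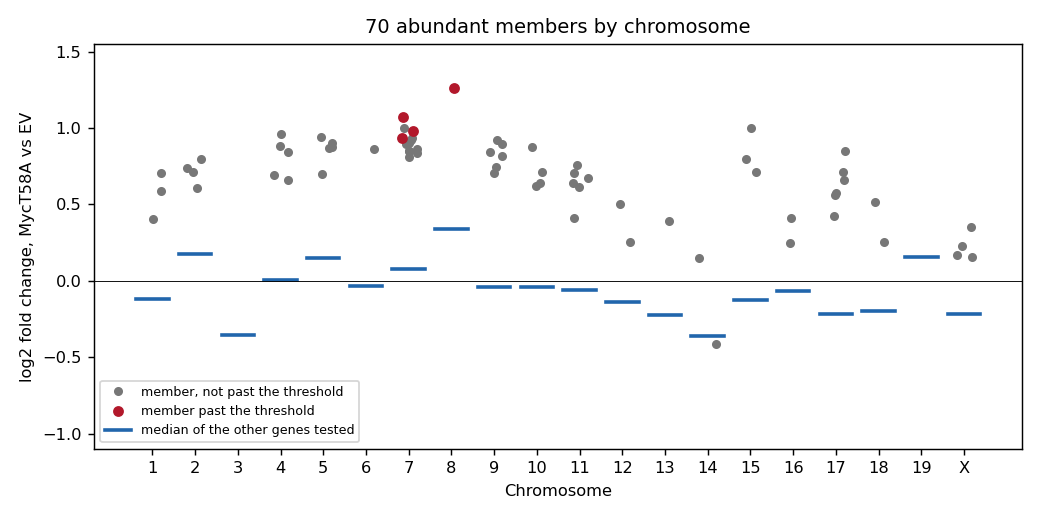
Log2 fold change of MycT58A over EV (y axis) for 70 of the 72 abundant members by chromosome (x axis); red points passed the test, grey points did not, and the blue line is the median of the other tested genes of that chromosome. Rpl13 on chromosome 8 lies at 1.26, members on X between 0.16 and 0.35, and the blue lines run from -0.36 on chromosome 14 to 0.34 on chromosome 8.

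Ribosomal protein genes whose symbols the rule misses moved with the family. Of 8 in the table, 7 were tested. Against control 7 rose in MycT58A and 6 in EV, with medians of 2.10 and 1.43, where 31.2% and 30.7% of all genes rose. Rack1, a scaffold on the small-subunit head, had log2 fold changes of 3.62 in MycT58A and 2.82 in EV (edgeR adjusted p = 8.4e-05 and 0.000258). Between the tumours, Rpl22l1, a paralog of Rpl22, was higher in MycT58A by 1.28 (adjusted p = 0.0227). Rpl22l1 did not pass the test in EV against control (0.26, adjusted p = 0.361).

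Other mRNAs of the TOP class, mostly translation factors, moved in the same direction as the ribosomal proteins over control. Of 21 tested, 19 rose and 1 fell in each tumour group, with median log2 fold changes of 2.18 in MycT58A and 1.56 in EV. Over all genes 31.2% rose in MycT58A and 30.7% in EV. The poly(A)-binding protein gene Pabpc1 had 3.86 in MycT58A and 2.98 in EV (edgeR adjusted p = 3.3e-05 and 8.4e-05). Eif4a2, an RNA helicase, was the one that fell, by 3.35 in MycT58A and 3.02 in EV on the log2 scale. MycT58A against EV had a median of 0.66, with Eif3f (0.91, adjusted p = 0.0343) the one that passed, or 4.76% against 3.28% of all genes.

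Mitochondrial ribosomal proteins, which build the separate ribosome of mitochondria, had lower medians. Of 78 tested, 55 rose and 0 fell in MycT58A and 24 rose and 2 fell in EV against control. The shares that rose were 70.5% in MycT58A and 30.8% in EV, against 31.2% and 30.7% of all genes, so the EV share was near that of all genes. The log2 fold changes had medians of 0.97 and 0.45, where the cytosolic members had 2.76 and 2.01. For MycT58A over EV the median was 0.39, with 2 higher and 0 lower, or 2.56% higher against 3.28% of all genes.

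Factors that import and assemble ribosomal proteins had 19 tested genes. Against control, 15 rose and 0 fell in MycT58A, and 11 rose and 1 fell in EV, with medians of 1.80 and 0.75. The shares that rose, 78.9% and 57.9%, stood beside 31.2% and 30.7% of all genes. Between the tumours 3, or 15.8%, rose in MycT58A, against 3.28% of all genes. Ipo5, an importin that carries ribosomal proteins into the nucleus, rose by 1.28 (edgeR adjusted p = 0.013). Bccip rose by 0.87 (adjusted p = 0.0405) and Heatr3, a carrier of Rpl5, by 1.18 (adjusted p = 0.0423). Among 11 regulators of TOP mRNA translation, Cnbp was higher in MycT58A than in EV by 1.02 (adjusted p = 0.0395). Over control, 7 of the 11 rose and 2 fell in MycT58A and 4 rose and 2 fell in EV; the shares that rose, 63.6% and 36.4%, stood beside 31.2% and 30.7% of all genes. Eif4ebp1, a repressor of cap-dependent translation, had 5.88 in MycT58A and 4.44 in EV, and Mtor fell by 1.07 and 1.36 on the log2 scale.

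Of 4 genes in the p53 and 5S particle pathway, Cdkn1a, a p53 target that arrests the cell cycle, had 35.4, 37.2 and 30.2 CPM in MycT58A, 107, 132 and 1176 CPM in EV and 16.5, 20.1 and 31.3 CPM in control libraries, with EV 3 far above the rest. It was lower in MycT58A than in EV by a log2 fold change of -3.78 (edgeR adjusted p = 0.0415) and higher in EV than in control by 4.38 (adjusted p = 0.00411). Without EV 3 these values were -1.81 and 2.42 (edgeR adjusted p = 0.00532 and 0.000339). Cdkn2a, whose product ARF inhibits MDM2, was higher in MycT58A by 7.77 and in EV by 8.07 than in control. Mdm4 fell in EV against control by 0.75 (adjusted p = 0.0291). The calls between the tumour groups named here for Rpl22l1, Eif3f, Bccip, Heatr3, Cnbp and Cdkn1a were lost when any MycT58A or any control library was left out or only the 2 tumour groups were fitted, and that for Ipo5 without any MycT58A library or with the 2 groups only. Those of Bccip and Heatr3 were also lost without EV 1, and that of Heatr3 without EV 2.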

How the data were processed

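The authors deposited whole-number counts per gene symbol for 9 libraries; per the submitters' processing notes, bcl2fastq, TopHat and edgeR were used with mm10. Neither versions nor the read counter, annotation or use of strand are stated, so members with near-identical copies or antisense partners are uncertain. From these counts, edgeR 4.0.16 (R 4.3.3) was run on all 9 libraries: filterByExpr by group, TMM scaling, 1 mean per group and the quasi-likelihood test, with Benjamini-Hochberg adjustment over 15171 genes and a threshold of 0.05. CPM uses TMM-scaled library sizes, and log2 CPM adds 0.5. The 16631523 to 30410089 counts per library set the precision of low genes.

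Samples were grouped by their labels; replicate numbers follow accession order. The members and gene lists were chosen with earlier results of these data known, so members got no p of their own as a list. Genes named are those called (all if up to 12, otherwise the 8 of smallest p per direction), the 3 highest and 3 lowest per comparison, members not tested, and members of the role lists. Named after their values were seen were the 9 genes highest in EV 1, the genes whose promoters are shown, Rpl24, Rps16, Rpl18, Rps20, Rps15a, Rps14 and single marker genes. Some genes that entered the counts and medians are not reported here by name. The 18 alternatives include DESeq2 1.42.0 and limma-voom (limma 3.58.1). Positions and lengths come from GENCODE vM21 and promoters from RefSeq GRCm38.p6. The script was tested on simulated data.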

Additional observations from a re-analysis of the deposited data

How the results depend on the processing

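Against control, the counts of members that rose or fell stayed within 1.5 times of the reported ones under all 18 alternatives: 73 to 76 higher in MycT58A, 71 to 76 higher in EV, and 1 lower in each. Over all genes 24.5 to 40.1% were higher in MycT58A and 23.7 to 34.4% in EV. The count for MycT58A over EV, 6 members where 3.28% of all genes were higher, did not stay within 1.5 times. It was 2 with no low-count filter, 24 with DESeq2 and 14 with limma-voom, where 1.33, 8.77 and 5.83% of all genes were higher. It was 1 with limma-voom and group weights and 0 with only the 2 groups fitted, where 0.929 and 0.0707% were higher. With 1 library left out it ranged from 0 to 25, and the share of all genes higher from 0.116 to 10.9%. The cause was not tested. The members' median for MycT58A over EV ranged from 0.45 to 1.0045. With library size alone the median of all genes moved to -0.17 and that of the members to 0.59, and all genes called split into 301 higher and 938 lower, against 498 and 761 with TMM. For MycT58A over EV, the following log2 values changed sign. Rps27 had 0.11 with limma-voom and 0.0895 with group weights, and Rps27l -0.0201 with library size alone. With 1 library left out, the ranges were -0.15 to 0.41 for Rpl10, -4.17 to 1.998 for Rpl39l, -0.82 to 0.22 for Rps24, -0.67 to 0.99 for Rps27, -0.11 to 0.26 for Rps27l, -0.61 to 0.19 for Rps4l and -0.16 to 0.55 for Rps4x. Without EV 2, the values of Rpl15 (-0.17), Rpl36a (-0.17), Rps14 (-0.0426), Rpl35a (-0.0307), Rps29 (-0.0153) and Rpl24 (-0.0085) also changed sign. For EV against control, Rps27 had -0.0525 with limma-voom and -0.0291 with group weights, and -0.90 to 0.76 with 1 library left out. For MycT58A against control it had -0.0149 with library size alone and -0.0383 to 0.216 with 1 library left out. The median level of abundant members per kilobase, here the mean of the 3 library medians and not the median of group means, was in MycT58A, EV and control 958, 572 and 141 CPM with merged exons, 1583, 950 and 226 with the longest transcript, and 2287, 1341 and 349 with the principal transcript, an alternative chosen after seeing the data. No paired analysis was possible because the labels give no replicate numbers. Depth limits the members under 1 CPM, and only 3 libraries per group limit every test.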
